A study of Mus musculus with 4 samples.

Results

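A group of 32 genes that the mouse oocyte expresses was followed through RNA sequencing libraries of granulosa cells (GCs), the support cells that enclose it in the follicle. The genes were given as a list of names, and each name was matched to an Ensembl identifier. All 32 were present among the 55385 genes of the count table. The GCs came from preantral follicles of female mice of the Kunming stock, 12 to 14 days old, after 6 days of in vitro growth (IVG). For 2 libraries, the Control group, the follicles had grown without neurotrophin-4 (NT-4), and for the other 2, the NT4 group, NT-4 had been in the medium. By the study's methods, follicle stimulating hormone was in the medium of every culture. The labels do not give the dose of NT-4, which the study chose from several, and they give no genetic change in the mice. The labels call the cells granulosa cells of the ovary, and by the methods the GCs were what remained after oocytes had been freed from their complexes by enzyme and pipetting, with no cell sort described. By the study, the 2 samples of a group came from independent experiments, while the labels do not say which experiment each library belongs to.

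A growing oocyte stores large amounts of messenger RNA and protein for meiosis and for the first days of the embryo. It builds the zona pellucida, its extracellular coat, and secretes GDF9 and BMP15, ligands of the TGF-β family that act on the GCs around it. GCs answer with Kit ligand, which binds KIT on the oocyte surface, and stay coupled to the oocyte through gap junctions on processes that cross the zona.

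The libraries held 49520092 to 78704020 counts, an estimated 12380023 to 19676005 read pairs, and Control 1 was the shallowest of the 4. Low counts piled up at multiples of 4, which made up 45.4% to 46.2% of the counts from 1 to 12 by library. On this ground 1 read pair was taken as about 4 counts, an assumption that the other low counts do not share. For a gene without a count, the expected number may still have been as high as 3 read pairs. In counts per 1000000 of the library (CPM) this was 0.152 to 0.242, which was taken as the detection limit. This limit and the intervals given below cover counting error only, because PCR copies are not independent molecules. The cell label was checked on 16 granulosa markers, and 16 of 16 were above that limit in every library. *Inha*, which encodes the inhibin α subunit, stood at 5855 to 8687 CPM.

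The upstream sequences of 3 genes are shown because oocyte transcription factors of the basic helix-loop-helix type, such as FIGLA, bind the E-box, and the zona genes are known targets of FIGLA. Each window holds the 250 bases before the RefSeq start of the gene on its own strand, 5′ to 3′, from the RefSeq promoter set of build GRCm38.p6. Capitals mark the E-box CANNTG, which reads the same on both strands, and no marked E-box shares bases with another. The windows are chr5:135979855-135980104 on the plus strand for *Zp3*, chr4:140742644-140742893 on the minus strand for *Padi6* and chrX:6320725-6320974 on the minus strand for *Bmp15*.
Zp3: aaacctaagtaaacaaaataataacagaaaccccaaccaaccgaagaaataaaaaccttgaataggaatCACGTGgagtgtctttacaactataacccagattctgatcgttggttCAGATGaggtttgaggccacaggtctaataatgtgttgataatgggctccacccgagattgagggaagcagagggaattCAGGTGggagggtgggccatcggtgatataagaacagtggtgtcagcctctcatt
Padi6: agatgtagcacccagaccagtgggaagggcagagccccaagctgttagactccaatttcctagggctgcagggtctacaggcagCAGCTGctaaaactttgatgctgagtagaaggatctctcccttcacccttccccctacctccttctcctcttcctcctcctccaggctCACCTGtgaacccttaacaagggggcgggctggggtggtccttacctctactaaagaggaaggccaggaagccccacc
Bmp15: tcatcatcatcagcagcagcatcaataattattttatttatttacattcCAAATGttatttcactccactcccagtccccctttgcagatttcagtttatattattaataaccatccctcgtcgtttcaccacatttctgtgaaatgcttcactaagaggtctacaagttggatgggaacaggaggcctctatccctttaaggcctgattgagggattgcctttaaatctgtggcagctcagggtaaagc

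The E-boxes of *Zp3* began at positions -181, -134 and -55 from the start. Those of *Padi6* began at -166 and -78, and the single E-box of *Bmp15* at -201. A promoter window was matched for 24 of the 32 genes, and where a gene had more than 1 window the nearest to its annotated start was taken. Among them 20, or 83.3%, held an E-box. The windows of *Kpna7*, *Figla* and *Khdc3*, which lay 74394, 1020 and 562 bases from the annotated start, were among those with an E-box. With 1 window taken per gene in the same way, 64.0% of 20595 genes held one, and over all 32851 windows of 250 bases the share was 66.2%. The letters TAATTG, the element that the oocyte homeobox factor NOBOX is known to bind, were searched on both strands and were found in 1 of the 24 windows, that of *Ooep*, or 4.17%, against 6.53% of the 20595 genes and 7.17% of all windows. These matches describe letters in a window and say nothing of whether a factor was bound.

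Oocyte transcripts were present in every library. Of the 32 genes, 30 had more than 3 read pairs in all 4 libraries, and the other two, *Figla* and *Sohlh1*, were at or near 0. Together the 32 genes took 0.0312% and 0.0224% of the counts in Control 1 and Control 2, and 0.0253% and 0.0249% in NT4 1 and NT4 2. In bulk RNA, fewer cells of a type and less RNA per cell cannot be told apart. Scaled by exon length, so that genes can be compared, the 32 levels summed to 308 to 432 by library on a TPM scale, where all genes of a library sum to 1000000, while *Inha* alone stood at 10543 to 14841 on the same scale. The median level per exon length of the 32 genes was 7.78 and 5.28 in the Control libraries, and 5.82 and 5.88 in the NT4 libraries. For the 16 granulosa markers this median was 261 to 345.

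**Figure D1:**
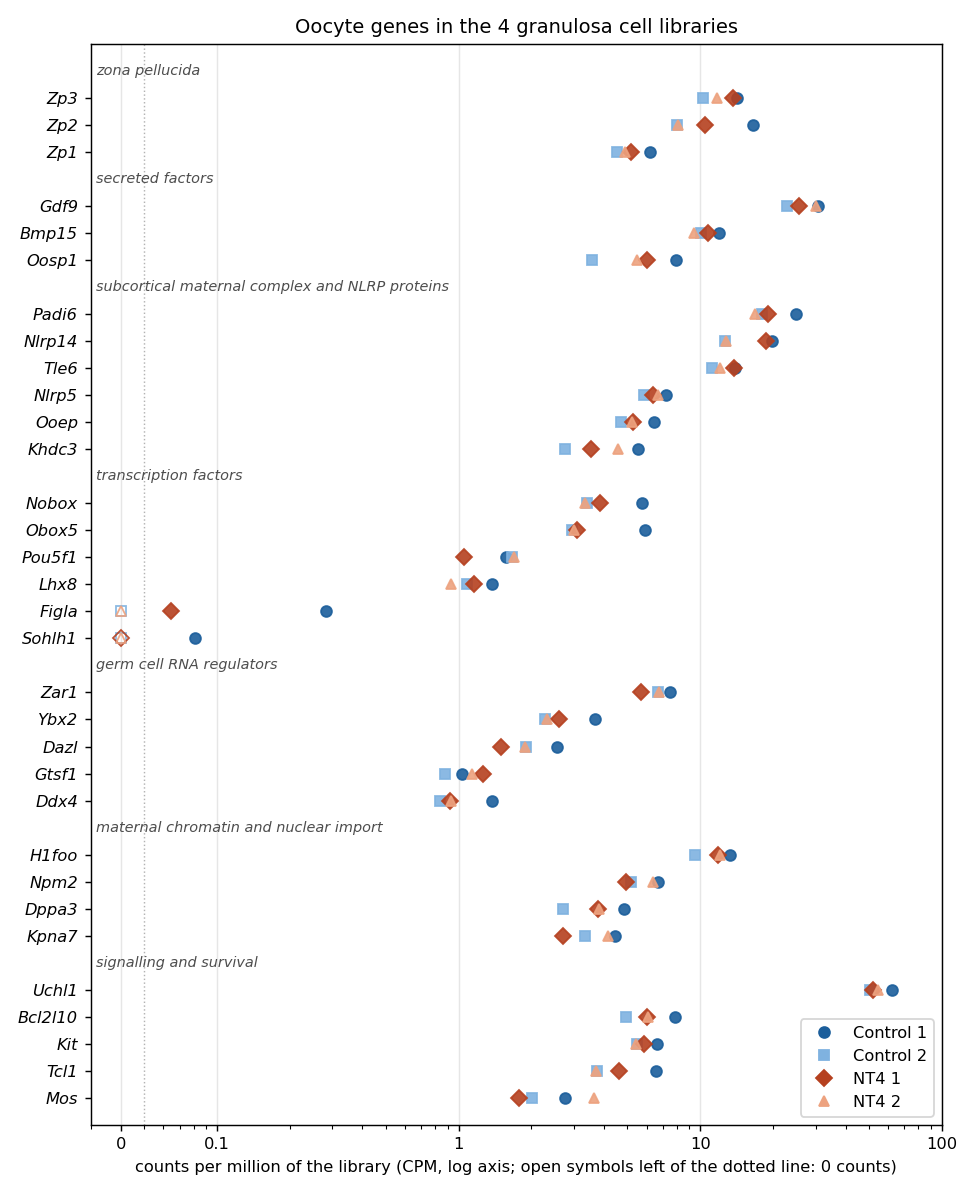
CPM of each of the 32 oocyte genes (rows, by role) on a log axis, with 1 symbol per library and open symbols for 0 counts. Control 1 (dark circles) lies furthest to the right in 27 of the 30 genes tested, and *Figla* and *Sohlh1* are the genes with open symbols.

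The zona pellucida genes were all detected. *Zp3*, which encodes a structural glycoprotein of the zona (ENSMUSG00000004948, chr5:135980099-135988624, plus strand, GRCm38), was at 14.2 and 10.3 CPM in Control 1 and Control 2, and at 13.7 and 11.8 CPM in NT4 1 and NT4 2. *Zp2*, another structural glycoprotein, was at 16.5 and 8.0 CPM in the Control libraries and at 10.4 and 8.09 in the NT4 libraries. *Zp1*, whose product links the zona filaments, was at 6.20 and 4.53 CPM in Control and 5.15 and 4.90 in NT4. For all 3 genes Control 1 was the highest library and Control 2 the lowest, so both NT4 libraries lay between the Control libraries. Per exon length *Zp3* was the most abundant of them, with 24.6 ± 5.39 (SD, n = 2) in Control and 24.9 ± 3.62 (SD, n = 2) in NT4.

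The secreted factors included the second most abundant of the 32 genes. *Gdf9* (ENSMUSG00000018238, chr11:53431023-53437904, plus strand) was at 30.8 and 23.0 CPM in the Control libraries and at 25.6 and 30.2 in the NT4 libraries. *Bmp15*, its close relative (ENSMUSG00000023279, chrX:6314107-6320721, minus strand), was at 11.95 and 10.03 CPM in Control and 10.8 and 9.43 in NT4. Per exon length *Gdf9* stood at 35.2 ± 7.10 (SD, n = 2) in Control, and *Bmp15* at 9.57 ± 1.14 (SD, n = 2). *Oosp1*, which encodes a secreted oocyte protein, had the widest range of the 30 genes tested, from 3.58 CPM in Control 2 to 7.94 in Control 1, a ratio of 2.22. Its NT4 libraries lay inside that range, at 6.00 and 5.45 CPM.

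Genes of the subcortical maternal complex, a protein assembly under the oocyte membrane that the early embryo needs, and of the NLRP family were detected in all 4 libraries, 6 of 6. *Nlrp5*, which encodes the founding component MATER (ENSMUSG00000015721, chr7:23385889-23441922, plus strand), was even across libraries, at 7.23 and 5.83 CPM in Control and 6.41 and 6.71 in NT4. *Padi6*, which is needed for the cytoplasmic lattices of the oocyte, was at 25 and 18.05 CPM in Control and 19.0 and 16.8 in NT4. *Nlrp14*, which oocytes and other germ cells express, was at 19.7 and 12.7 CPM in Control and 18.8 and 12.8 in NT4, so that its 2 libraries numbered 1 were the high ones in both groups. *Khdc3*, which encodes FILIA, ranged from 2.75 CPM in Control 2 to 5.51 in Control 1. *Tle6* stood at 11.1 to 14.0 CPM, and *Ooep*, which encodes FLOPED, at 4.72 to 6.46 CPM. *Khdc3* shares 790 exon bases on the same strand with *Gm20509*, which was listed at 0 counts in every library.

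The transcription factors had the lowest median level per exon length of the 7 roles in every library, at 1.23 to 1.65. *Nobox*, the homeobox factor of growing oocytes, was at 5.71 and 3.39 CPM in Control and 3.86 and 3.33 in NT4. *Obox5*, of the oocyte homeobox family, was at 5.90 and 2.96 CPM in Control and 3.08 and 3.01 in NT4, so Control 1 stood alone above the other 3 libraries. *Obox5* has close relatives in the genome, and reads may have been split among them. *Lhx8*, a LIM homeobox factor, stood at 0.928 to 1.37 CPM, and *Pou5f1*, which encodes OCT4, at 1.05 to 1.69 CPM. *Figla* had 14 counts in Control 1, 4 in NT4 1 and 0 in Control 2 and NT4 2. *Sohlh1*, which acts early in primordial follicles, had 4 counts in Control 1 and 0 in the other 3 libraries. These 2 genes were left out of the tests by the filter on low counts, and differences between their libraries were not detectable at this depth.

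The germ cell RNA regulators followed, with medians of 1.70 to 2.40. *Ddx4*, which encodes the germ line helicase VASA (ENSMUSG00000021758, chr13:112598333-112652475, minus strand), was at 1.37 and 0.841 CPM in Control and 0.920 and 0.928 in NT4, from 14.2 to 18.2 estimated read pairs. *Dazl*, which encodes a translation regulator, was at 2.56 and 1.898 CPM in Control and 1.5 and 1.88 in NT4, and was the single gene with both NT4 libraries below both Control libraries. That order was lost with TMM library sizes. *Gtsf1*, a gene of the piRNA pathway, was at 1.03 and 0.881 CPM in Control and 1.26 and 1.13 in NT4, and was the single gene with both NT4 libraries above both Control libraries. *Zar1* and *Ybx2*, whose products bind stored messenger RNA, stood at 5.70 to 7.49 CPM and at 2.28 to 3.66 CPM.

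Genes for maternal chromatin and nuclear import were led by *H1foo*, the oocyte linker histone, at 13.2 and 9.49 CPM in Control and 11.9 and 12.1 in NT4. *Npm2*, which encodes a histone chaperone of the egg, stood at 4.92 to 6.70 CPM. *Dppa3*, which encodes STELLA, a factor that protects DNA methylation in the zygote, was at 4.83 and 2.71 CPM in Control and 3.79 and 3.81 in NT4. *Kpna7*, an importin α of oocytes, stood at 2.69 to 4.44 CPM. *Npm2* shares 39 exon bases with *Xpo7*, at 165 to 188 CPM, and *Kpna7* shares 50 with *Arpc1a*, at 109 to 119 CPM, so a part of the counts of both genes is uncertain.

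Genes of signalling and survival held the most abundant of the 32. *Uchl1*, a deubiquitinating enzyme that neurons also express, was at 62.5 and 50.4 CPM in Control and 51.8 and 54.2 in NT4, and took 20.0% to 22.6% of the summed CPM by library. Per exon length it stood at 92.1 ± 13.5 (SD, n = 2) in Control and 84.0 ± 0.36 (SD, n = 2) in NT4, at percentile 93.7 of the 27035 genes with a count in any library. *Kit*, the receptor for Kit ligand (ENSMUSG00000005672, chr5:75574916-75656722, plus strand), was at 6.62 and 5.48 CPM in Control and 5.84 and 5.44 in NT4. *Bcl2l10*, of the BCL2 family, was at 7.88 and 4.94 CPM in Control and 6.02 and 6.06 in NT4. *Tcl1*, which encodes a cofactor of the kinase AKT, ranged from 3.71 to 6.58 CPM. *Mos*, the kinase that holds the mature egg in meiosis, was at 2.77 and 2.02 CPM in Control and 1.77 and 3.62 in NT4, so its 2 extremes were the NT4 libraries.

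The order of abundance was alike in every library. Across the 30 genes tested, log2 CPM in any library correlated with that in any other at a Pearson r of 0.972 to 0.984 and a Spearman rho of 0.964 to 0.979. These values run across genes of 1 sample type, share gene length and base composition, and are given as a description. Per exon length, *Uchl1*, *Gdf9*, *H1foo*, *Zp3* and *Padi6* had the highest means over the 4 libraries, in that order, and *H1foo* and *Zp3*, at 25.5 and 24.8, did not differ beyond their spread.

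What differed was the amount, and it differed most between the Control libraries. The 32 genes summed to 312 CPM in Control 1 (exact Poisson 95% interval 302 to 322), 224 in Control 2 (217 to 230), 253 in NT4 1 (245 to 261) and 249 in NT4 2 (243 to 257). The sum in Control 1 was thus 1.40 times that in Control 2, and both NT4 sums lay between them. The groups overlapped, at 268 ± 62.6 CPM (SD, n = 2) in Control and 251 ± 2.40 (SD, n = 2) in NT4. An exact permutation test of 2 against 2 libraries has only 3 splits and cannot go below a p of 0.333, so no test was made of the sum. The intervals of the NT4 libraries overlapped each other, and neither overlapped that of Control 1 or that of Control 2.

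**Figure D2:**
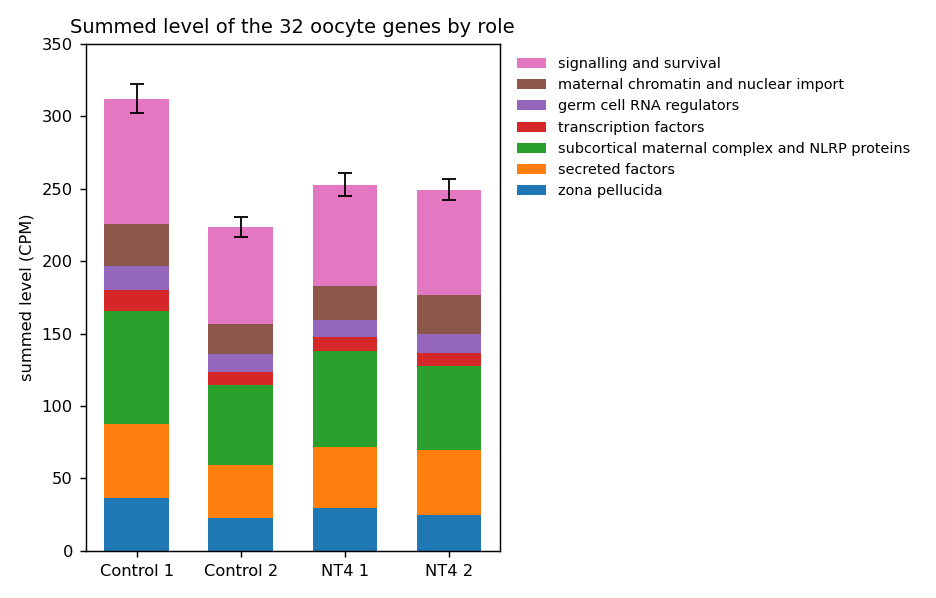
Summed CPM of the 32 oocyte genes in each library (bars from 0, stacked by role), with exact Poisson 95% intervals of the total from the estimated read pairs. Control 1 reaches 312 CPM and Control 2 reaches 224, with NT4 1 and NT4 2 between them at 253 and 249.

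The excess in Control 1 ran through all 7 roles. The ratio of Control 1 to Control 2 in summed CPM was 1.62 for the zona genes, 1.39 for the secreted factors, 1.41 for the subcortical complex and NLRP genes, 1.64 for the transcription factors, 1.28 for the RNA regulators, 1.41 for chromatin and nuclear import and 1.30 for signalling and survival. Without *Uchl1* the ratio over all genes was 1.44, and without the 5 genes that share exon bases with another gene it was 1.44 too. Control 1 was the highest of the 4 libraries in 27 of the 30 genes tested, or 90.0%, while it was the highest for 26.3% of all 19259 genes tested. The exceptions were *Pou5f1* and *Mos*, highest in NT4 2, and *Gtsf1*, highest in NT4 1. Control 2 was the lowest library in 18 of the 30, or 60.0%, and in 21.8% of all genes tested.

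The gene by gene ratios gave the same picture. Over genes with counts in both libraries, the median log2 ratio of CPM from Control 2 to Control 1 was 0.45 for the 30 genes, and 29 of 30 ratios were above 0, while the median over all genes tested was 0.021. From NT4 2 to NT4 1 the median was 0.028 over the 30 genes. NT4 1 against Control 1 gave a median of -0.39, and NT4 2 against Control 2 gave 0.12, so the direction of the difference between treated and untreated GCs turned with the Control library used. From the lowest to the highest library the 30 genes varied by a median of 1.52 times (range 1.22 to 2.22). The 9916 other genes tested with a mean CPM in the range of the 30, from 1.02 to 54.7, varied by a median of 1.38 times. They were not matched to the 30 genes in level within that range. Control 1 was also the shallowest library, and the part of depth in its excess was not tested.

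**Figure D3:**
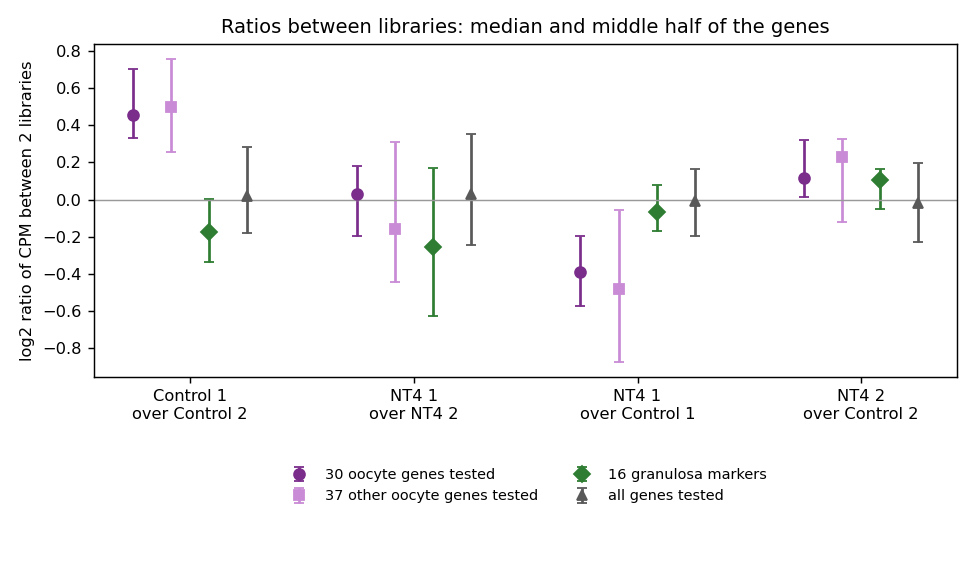
Median log2 ratio of CPM between pairs of libraries (points) with the middle 50% of genes (bars), for the 30 oocyte genes tested, 37 other oocyte genes, 16 granulosa markers and all genes tested, where both libraries had counts. The oocyte genes described here sit at 0.45 for Control 1 over Control 2 and at 0.028 for NT4 1 over NT4 2, while all genes stay near 0 in every pair.

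The main comparison asked whether NT-4 during IVG went with a different level of these transcripts in GCs. None of the 30 genes tested was called higher or lower. By edgeR's quasi-likelihood test with Benjamini-Hochberg adjustment over 19259 genes, 0 of 30 passed an adjusted p of 0.05, and 0.0% of all genes did. No gene of the 30 had an unadjusted p under 0.05, the smallest being 0.231 for *Obox5* by edgeR, and DESeq2 and limma voom also called 0 of the 30. Over all genes, edgeR gave 383 at an unadjusted p under 0.05, or 1.99%, DESeq2 called 63 after adjustment and limma voom 0. The study's methods used a p under 0.05 together with a fold change that exceeded 2 or fell short of 0.5, and this p was read here as unadjusted. This criterion was met by 0 of 30 oocyte genes and by 1.08% of all genes tested.

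The 6 genes fixed for reporting had log2 fold changes of NT4 over Control close to 0. *Zp3* was at 0.08 (SE 0.22) and *Gdf9* at 0.08 (SE 0.20). *Bmp15* was at -0.10 (SE 0.19) and *Nlrp5* at 0.03 (SE 0.21). *Ddx4* was at -0.23 (SE 0.44) and *Kit* at -0.08 (SE 0.22). Every one of the 6 had an adjusted p of 0.9999 in edgeR, and each lay within 1 SE of 0. The other 24 genes tested ran from -0.51 for *Obox5* to 0.34 for *Gtsf1*.

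Of the 30 fold changes, 10 were above 0 and 20 below, while 51.0% of all genes tested lay above 0. In size, 26 of the 30 were smaller than their own SE. The median of the 30 was -0.071 on the log2 scale, against 0.0045 for all genes tested. Both NT4 libraries exceeded both Control libraries in CPM for 1 of 30 genes, against 11.9% of all genes tested, and both fell below for 1 of 30, against 14.6%. The median depended on the Control libraries. Without Control 1 it was 0.15 with 25 of 30 genes above 0, and without Control 2 it was -0.29 with 29 of 31 below 0. These fits leave a group with 1 library, which is assumed to vary like the pair of the other group. In the fit without Control 2, *Zp2* and *Obox5* had unadjusted p-values under 0.05 by edgeR, and neither passed the adjusted threshold. The direction thus turned with the Control library left out, and a p that misses the threshold does not show that the groups were equal.

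**Figure D4:**
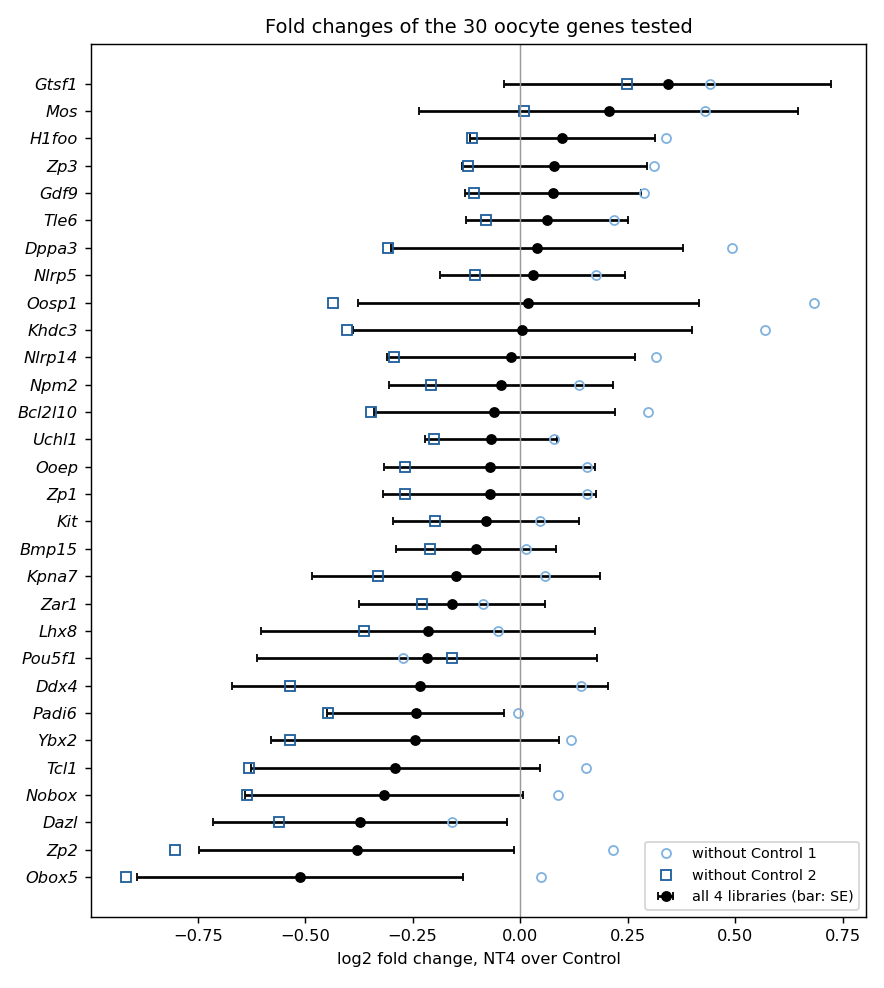
Log2 fold change of NT4 over Control for the 30 oocyte genes tested (filled points, bars 1 SE), with the same value from the fits without Control 1 (open circles) and without Control 2 (open squares). The filled points run from -0.51 to 0.34, and except for *Pou5f1* every circle lies to the right of its square.

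A second list of 40 oocyte genes, none of them among the 32, was read in the same way. It had been written with results of these data known. A count was seen in every library for 34 of the 40, and 37 passed the filter. *Taf4b*, a subunit of a transcription complex that GCs also express, led it at 77.2 to 99.5 CPM, followed per exon length by *Oas1e*, of the oligoadenylate synthetase family, *Gja4*, the gap junction protein of the oocyte, and *Oas1c*, a relative of *Oas1e*. *Gja4* was at 6.95 and 4.90 CPM in Control and 5.53 and 6.67 in NT4. *Tbpl2*, the oocyte form of the TATA-binding protein, was listed at 0 counts in all 4 libraries. This leaves room for an expected number of up to 3 read pairs in each.

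Control 1 was often the highest library in the second list as well, in 22 of 37 genes, or 59.5%, and the median log2 ratio of Control 1 to Control 2 was 0.50. NT4 1 was the lowest library in 16 of the 37 and Control 2 in 11, against 25.7% and 21.8% of all genes tested. The whole list summed to 218 and 182 CPM in the Control libraries and to 187 and 174 in the NT4 libraries, with a ratio of Control 1 to Control 2 of 1.20. Without *Taf4b* it summed to 119 and 82.5 CPM in Control and to 88.6 and 97.1 in NT4, and that ratio was 1.44. For NT4 over Control, 0 of 37 were called by edgeR, DESeq2 or limma voom. Of the 37 fold changes, 13 were above 0 and 24 below, while 51.0% of all genes tested lay above 0. By edgeR 1 gene of the 37, *Rfpl4*, had an unadjusted p under 0.05, against 1.99% of all genes, and it also met the study's criterion, as 1.08% of all genes did. *Rfpl4*, named here after its values were seen, was at 2.95 and 1.59 CPM in Control and 5.28 and 4.17 in NT4. It differed by 1.08 on the log2 scale (SE 0.37), at an unadjusted p of 0.0308 and an adjusted p of 0.9999 in edgeR. With a group of 1 library again assumed to vary like the other pair, leaving out Control 2 in edgeR gave 0.71 at an unadjusted p of 0.12, and leaving out NT4 1 gave 0.92 at 0.11. Leaving out Control 1 gave 1.58 at an unadjusted p of 0.0069 in edgeR, and leaving out NT4 2 gave 1.23 at 0.049. DESeq2 gave 1.08 at an unadjusted p of 0.015, limma voom gave 1.18 at 0.018, and the adjusted p was at least 0.910 in every fit run.

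The GC side of the exchange stood higher by its median level per exon length, at 48.7 to 58.4 by library. Its lowest genes, the response genes *Tnfaip6*, *Ptgs2*, *Has2* and *Ptx3*, lay far below that median. Their means over the libraries were 5.47, 5.18, 1.02 and 0.279 per exon length. Of the 18 genes for receptors, transducers and responses to the oocyte factors, 18 were above the detection limit in every library. *Gja1*, the gap junction protein of GCs, was at 1828 to 1964 CPM. *Bmpr2* and *Bmpr1b*, receptors for ligands of the BMP15 type, were at 766 to 972 and 259 to 327 CPM. *Smad4*, the common signal transducer, was at 110 to 123 CPM. For NT4 over Control, 9 of the 18 fold changes were above 0 and 9 below, against 51.0% above 0 over all genes tested. The median of the 18 was -0.002. In edgeR 0 of the 18 passed the adjusted threshold, as did 0.0% of all genes. The unadjusted threshold was passed by 0 of the 18, against 1.99% of all genes.

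The marker lists of other cells did not all follow the oocyte genes. Granulosa markers summed to 16137 and 19499 CPM in Control 1 and Control 2, and to 14357 and 21067 in NT4 1 and NT4 2. Unlike for the oocyte genes, the sum in Control 1 was below that in Control 2, and *Inha* alone made up 6716 and 7979 CPM of these sums. By gene, the median log2 ratio of Control 1 to Control 2 was -0.17. Of the 16 markers, 4 went the other way, among them *Amh*, named here after its values were seen, at 303 and 151 CPM. The median level per exon length of the markers was also higher in Control 1, at 342 against 295. Theca and stroma markers, 10 of 10 detected, summed to 1395 and 1381 CPM in Control and to 1978 and 1610 in NT4, without overlap of the groups. All 10 of their fold changes were above 0, against 51.0% over all genes tested, and their median was 0.39 on the log2 scale, against 0.0045. *Acta2*, *Col3a1* and *Dcn*, 3 of the 10, had an unadjusted p under 0.05 in edgeR, against 1.99% of all genes, and 0 passed the adjusted threshold. *Acta2*, of smooth muscle and stroma, was at 238 and 212 CPM in Control and 312 and 290 in NT4. *Cyp17a1*, the androgen-producing enzyme of theca cells, was at 73.1 and 134 CPM in Control and 135 and 170 in NT4. The part of the granulosa or the theca shift in the levels of the oocyte genes was not tested.

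Markers of 4 further cell types were low, and each list summed higher in Control 1 than in Control 2. The 95% counting intervals of the 2 libraries lay apart for the erythroid and endothelium markers and overlapped for the macrophage and surface epithelium markers. The 4 erythroid markers summed to 4.62 and 2.35 CPM in Control 1 and Control 2 and to 3.40 and 4.14 in NT4 1 and NT4 2, so that Control 1 was the highest and Control 2 the lowest, as for the oocyte genes. The 5 macrophage markers summed to 1.72 and 0.976 CPM in Control and 1.92 and 1.28 in NT4, and the 5 endothelium markers to 25.8 and 19.3 in Control and 28.5 and 20.4 in NT4. In both of these lists NT4 1 was the highest library. The ratio of Control 1 to Control 2 was 1.97 for the erythroid, 1.76 for the macrophage and 1.34 for the endothelium markers, against 1.40 for the 32 oocyte genes. The macrophage and erythroid sums rest on 18.0 to 81.5 estimated read pairs per library. The 5 surface epithelium markers summed to 0.323 and 0.054 CPM in Control and 0.274 and 0.508 in NT4, on 1 to 10 estimated read pairs. The part of these cells in the excess of Control 1 was not tested. The defining macrophage genes *Ptprc* and *Adgre1* lay at or under the detection limit, and *Krt19* and *Upk1b* of the surface epithelium were listed at 0 counts in all 4 libraries. Most of the endothelium sum was *Cdh5*, at 16.4 to 25.5 CPM. The 5 fold changes of NT4 over Control in the endothelium list went both ways. Above 0 were 3 and below 0 were 2, from -1.78 to 1.97 on the log2 scale, while 51.0% of all genes tested lay above 0. In that list *Tek*, a receptor of endothelial cells named here after its values were seen, met the study's criterion, as 1.08% of all genes did, at 0.162 and 0.190 CPM in Control and 0.952 and 0.432 in NT4 (log2 fold change 1.97, SE 0.71, unadjusted p 0.037 and adjusted p 0.9999 in edgeR). Its level in Control 1, 8 counts, lay under the detection limit of that library, and in Control 2 it had 14 counts, so that the size of the fold change is uncertain.

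**Figure D5:**
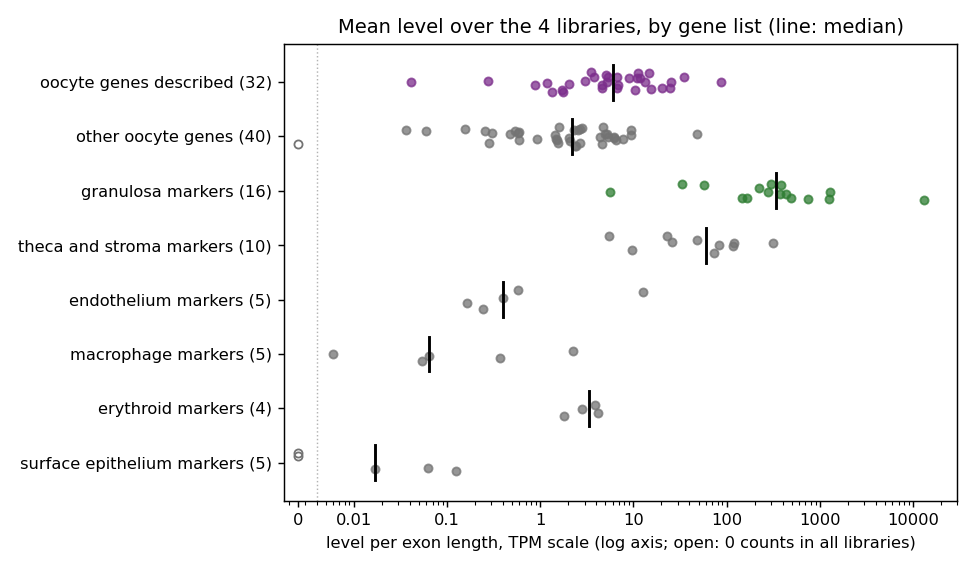
Mean level per exon length over the 4 libraries (log axis, TPM scale) for each gene of 8 lists, with the median as a line and open symbols at 0 counts in all libraries. The 32 oocyte genes lie below the granulosa markers and the theca and stroma markers, and above the macrophage and surface epithelium markers, by their medians.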

How the data were processed

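Libraries of GC RNA had a second strand marked by dUTP, which was removed, and were read as pairs on an Illumina NovaSeq. By their methods and processing notes, the authors trimmed reads with Cutadapt, mapped them with HISAT2 to mm10 and assembled and estimated transcripts with StringTie. The deposited values are expected counts per gene, whole numbers that the authors did not normalize, and how these were made from StringTie output, and whether strand was used, is not given in the sources used here. The series table and the 4 single-library files held identical values in 4 of 4 libraries.

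Identifiers were matched to symbols, coordinates and exon lengths in GENCODE M21 (GRCm38). CPM is counts scaled to a library total of 1000000, and the level per exon length is counts divided by exon length and scaled as TPM. Groups came from the labels. Of 55385 genes, 19259 passed the filterByExpr function of edgeR 4.0.16 (R 4.3.3). They were tested two-sided by its quasi-likelihood method, with TMM normalization, the group alone and Benjamini-Hochberg adjustment. Fold changes with SE and adjusted p are printed for 6 of the 32 genes fixed by name and for any other of the 32 past the adjusted threshold or the study's criterion, of which there were none. The other oocyte genes tested are given by range and count, and genes outside the 32 are named at most 4 to a list by level per exon length, with exceptions stated. The 32 genes and the other lists were chosen with earlier results of these data known. DESeq2 1.42.0, limma 3.58.1, other scalings and filters, a replicate block and leaving out each library were the alternatives. On simulated counts for 18519 genes, the procedure called 30.6% of genes changed by 2-fold and 67.0% of those changed by 4-fold. Of the 18324 genes simulated without a change it called 10, or 0.0546%. These 10 false calls stood beside 30 and 65 calls of genes changed by 2-fold and 4-fold. The simulated counts varied by the trend over all genes, and the changes were spread over genes of every level. The shares called therefore do not describe genes of low counts such as *Ddx4*. One marker gene of the erythroid list is not reported here.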

Additional observations from a re-analysis of the deposited data

How the results depend on the processing

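The 30 oocyte genes tested, and the 37 of the second oocyte list, had 0 calls at an adjusted p of 0.05 under every alternative run. Over all genes, calls went from 0 to 63 with DESeq2, whose own filter replaced that of edgeR and started from 27099 genes, and to 10 in edgeR with no filter on low counts. The study's criterion, met by 208 genes, was met by 334 with DESeq2, 345 with no filter, 119 with counts divided by 4 and 87 when genes needed a CPM of 1 in at least 2 libraries. Leaving out each library in turn gave 0 to 37 calls (12 without Control 1, 37 without Control 2) and 341 to 512 genes by the criterion (406 without Control 1, 512 without Control 2, 341 without NT4 1, 392 without NT4 2). The cause was not tested.

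The median log2 fold change of the tested oocyte genes, -0.071 with all libraries, ran from -0.29 to 0.15 over the 30 or 31 genes each fit tested, and that of the second list from -0.31 to 0.096 when 1 library was left out, and both turned above 0 without Control 1. In the same fits *Zp3* ran from -0.12 to 0.31, *Gdf9* from -0.11 to 0.29, *Bmp15* from -0.21 to 0.013, *Nlrp5* from -0.10 to 0.18, *Ddx4* from -0.54 to 0.14 and *Kit* from -0.20 to 0.047, with adjusted p of at least 0.936 by edgeR over all their alternatives. The other scalings, filters and tests run kept the direction of each, except that *Ddx4* was not tested under the filter at a CPM of 1.

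Without the 5 genes that share exon bases the summed CPM was 231, 160, 189 and 178 in Control 1, Control 2, NT4 1 and NT4 2, and without *Uchl1* 201 in NT4 1 and 195 in NT4 2. TMM library sizes gave 255 in NT4 2, 26 of 30 genes highest in Control 1 and 0 of 30 with both NT4 libraries lower. The mean CPM of each gene under TMM library sizes, an alternative chosen after seeing the data, moved by less than the spread between libraries for 32 of 32 genes. With TMM factors of 0.980 to 1.014 so small a move was fixed in advance, so it is no check of the levels.

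With the replicate number as a block (replicate block) 0 genes were called, 180 met the criterion and the median of the 30 was -0.059. The deviations of same-numbered libraries correlated at a Pearson r of 0.166 and a Spearman rho of 0.284 across all genes tested, and at 0.319 and 0.293 across the 30. By the study's methods the cultures of all groups ran in parallel, but no source says what the number marks. With 2 pairs this check does not settle whether the libraries were paired, so pairing was not used. Depth limits the lowest genes, since *Ddx4*, *Gtsf1*, *Lhx8* and *Pou5f1* rest on 12.8 to 33.2 estimated read pairs per library.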
